A study of Mus musculus with 6 samples.

Results

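The immediate early and stress response genes described here are 38 genes of the AP-1, Egr, Nr4a, Klf, Dusp and related families, chosen by name. They were read in whole lung homogenate of 6 FVB/N mice, with 1 Affymetrix mouse expression array per mouse. All probe sets that the platform annotation gives exactly 1 of these gene symbols were taken, which gave 65 of the 45101 probe sets on the array. Of the 38 members, 21 were read by a single probe set. The list was proposed with earlier results of these data known, so the differences between groups given here are descriptions and carry no support of their own.

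The 6 mice fell into 3 groups of 2. R899X high RVSP mice were heterozygous for the SM22-rtTA and TetO7-BMPR2-R899X transgenes and had a clearly raised systolic pressure in the right ventricle (RVSP). R899X normal RVSP mice carried the same pair of transgenes and had an RVSP close to normal. Control mice carried SM22-rtTA alone. Doxycycline, which activates the transactivator, was given to all 6 mice for 9 weeks starting at 4 weeks of age, and lungs were taken at 13 weeks, so the drug and the transactivator are common to every group. The SM22 promoter, that of the smooth muscle gene Tagln, drives the transactivator, so the truncated BMP receptor is meant to be induced in smooth muscle, whereas the RNA came from all cells of the lung. In such bulk samples, a change in the number of cells that express a gene and a change in RNA per cell cannot be told apart. The series describes all mice as female, while the label of control 1 does not state its sex. Xist, an RNA that female cells express, read from 4646 in control 1 to 7705 in control 2 by its brightest probe set. Another of its probe sets was lowest in R899X normal RVSP 1 and control 1, at 1589 and 3142.

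Immediate early genes are switched on within minutes of a stimulus, because the factors that drive them are already present in the cell and need only be phosphorylated. Growth factors, calcium, mechanical stretch and tissue injury all act on them, mainly through the kinases that activate the serum response factor (SRF), its Elk partners and CREB. Their messages are short-lived, and many of their products are transcription factors, among them the Fos and Jun proteins that form the AP-1 dimer, or inhibitors such as the Dusp phosphatases that end the kinase signal. Klf2 is a factor that laminar shear stress induces in endothelium.

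The promoters of 6 members on which the results turn are printed here to show which known response elements they hold. Each is the 250 bases before the transcript start, read 5′ to 3′ on the gene's own strand, from RefSeq on mouse build GRCm38.p6. Capitals mark a match on either strand to the SRF CArG box, the cAMP response element TGACGTCA, the Egr site GCGNGGGCG, the AP-1 site TGANTCA or TATAAA.
Fos (chr12:85473640-85473889, plus strand): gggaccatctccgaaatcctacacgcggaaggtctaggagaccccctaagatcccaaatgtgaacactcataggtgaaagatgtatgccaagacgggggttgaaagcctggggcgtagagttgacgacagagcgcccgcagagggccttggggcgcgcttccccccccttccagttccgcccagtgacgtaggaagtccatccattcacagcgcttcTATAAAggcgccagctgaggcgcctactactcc
Zfp36 (chr7:28379229-28379478, minus strand): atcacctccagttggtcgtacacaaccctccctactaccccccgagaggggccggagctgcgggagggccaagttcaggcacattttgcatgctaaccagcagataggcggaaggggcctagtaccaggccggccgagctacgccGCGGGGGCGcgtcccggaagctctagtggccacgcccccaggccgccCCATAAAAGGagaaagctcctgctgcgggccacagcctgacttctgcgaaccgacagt
Nr4a1 (chr15:101266596-101266845, plus strand): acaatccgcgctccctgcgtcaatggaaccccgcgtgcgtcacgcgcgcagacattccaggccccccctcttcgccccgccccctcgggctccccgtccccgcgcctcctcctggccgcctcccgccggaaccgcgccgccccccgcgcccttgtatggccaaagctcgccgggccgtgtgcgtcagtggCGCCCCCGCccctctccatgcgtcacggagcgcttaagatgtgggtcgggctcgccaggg
Btg2 (chr1:134079156-134079405, minus strand): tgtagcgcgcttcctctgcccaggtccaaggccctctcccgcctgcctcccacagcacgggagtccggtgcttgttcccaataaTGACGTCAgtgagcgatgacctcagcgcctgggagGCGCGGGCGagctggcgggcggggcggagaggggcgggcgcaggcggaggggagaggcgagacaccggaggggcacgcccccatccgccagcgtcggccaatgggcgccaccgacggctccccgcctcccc
Dusp5 (chr19:53528895-53529144, plus strand): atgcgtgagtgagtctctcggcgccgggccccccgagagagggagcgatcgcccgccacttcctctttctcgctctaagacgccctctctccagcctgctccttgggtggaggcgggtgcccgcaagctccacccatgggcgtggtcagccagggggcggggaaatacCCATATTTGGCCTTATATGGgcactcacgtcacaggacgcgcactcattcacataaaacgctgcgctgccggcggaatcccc
Klf2 (chr8:72318812-72319061, plus strand): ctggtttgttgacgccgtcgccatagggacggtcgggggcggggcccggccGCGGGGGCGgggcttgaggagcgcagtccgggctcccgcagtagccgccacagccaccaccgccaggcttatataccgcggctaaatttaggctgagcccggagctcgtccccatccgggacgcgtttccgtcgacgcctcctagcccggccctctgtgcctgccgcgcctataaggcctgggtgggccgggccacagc
Zfp36 and Dusp5 hold CArG boxes, the Dusp5 window a back-to-back pair of them. Btg2 holds a cAMP response element beside an Egr site. Nr4a1 and Klf2 hold an Egr site, and the Fos window holds TATAAA. Sites outside these 250 bases, or that match a pattern only in part, are not marked. The lack of a mark, as for a CArG box or cAMP response element in Fos, therefore does not show that the gene lacks the element.

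RefSeq promoter windows of 300 bases, 250 before and 50 after a start site, were found for 31 of the 38 members. Egr1, Egr3, Fosl1, Ier2, Klf10, Myc and Sik1 had none in the table. The Egr site was present for 12 of the 31 members (38.7%), against 6.27% of all 27025 genes with a window. The CArG box was present for 3 members (9.68%, against 1.81% of all genes) and the cAMP response element for 4 (12.9%, against 2.03%). The AP-1 site occurred for 1 member, Csrnp1 (3.23%, against 8.97%), and TATAAA for 5 (16.1%, against 15.7%). The 31 members had 41 windows in all, a gene counting once however many it had. A match is only a match of letters, and none of this was tested.

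The members varied between mice of the same group. For each gene the probe set with the highest mean intensity was used, and its log2(intensity + 16) was set against its own mean over the 6 arrays. The median deviation of the 38 members was 0.31 and 0.02 in mice 1 and 2 of the R899X high RVSP group. It was -0.32 in R899X normal RVSP 1 and 0.25 in R899X normal RVSP 2, the widest gap within any group. In the controls it was -0.24 in control 1 and -0.00093 in control 2. The same median over the 12557 genes that passed a filter on dim probe sets stayed between -0.019 and 0.058 on the 6 arrays. The members therefore stood high in one mouse of each R899X group and low in one R899X normal RVSP mouse and one control.

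**Figure D1:**
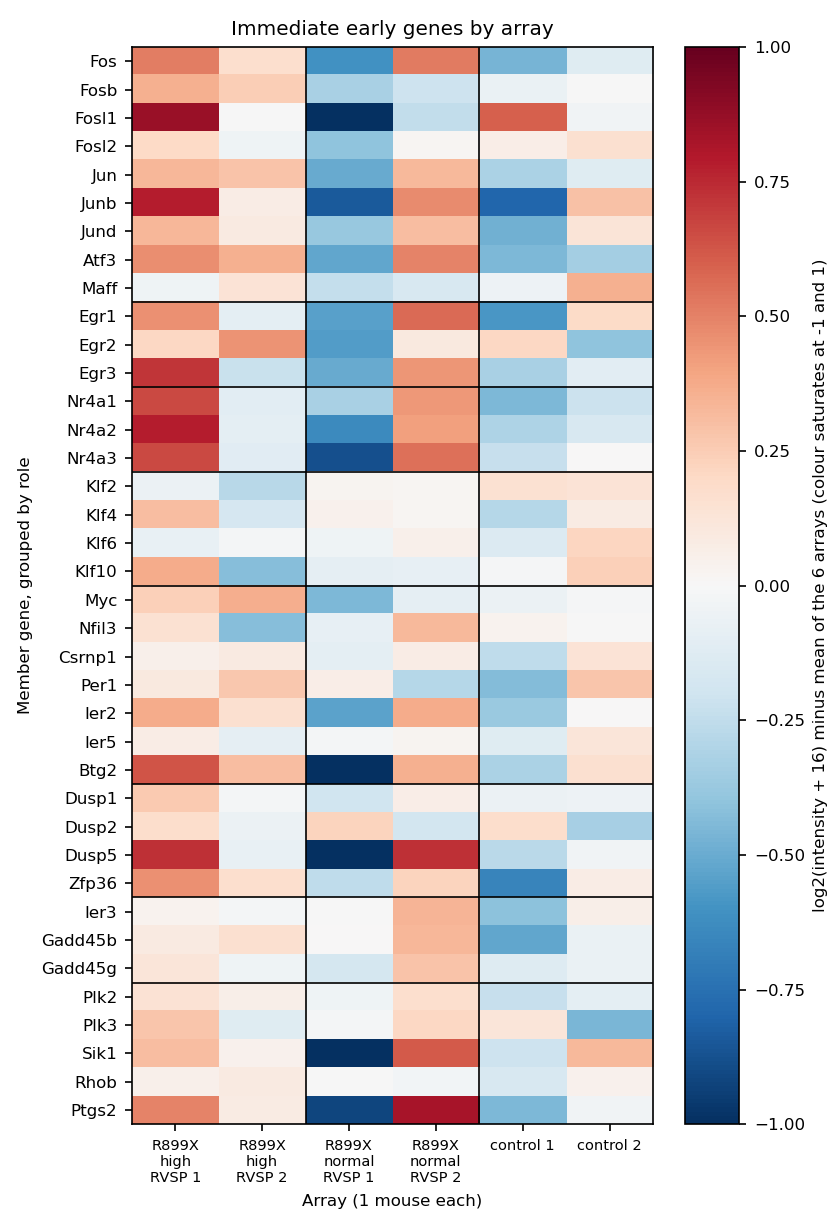
Log2(intensity + 16) of each of the 38 members (down the page, grouped by role) on each of the 6 arrays (across), minus the mean of that gene over the arrays. Red marks values above the gene's own mean and blue values below it, with the colour saturating at -1 and 1. R899X normal RVSP 1 is blue for most AP-1, Egr and Nr4a members, while R899X normal RVSP 2 is red for most of them.

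Counts of genes gave the same picture. R899X high RVSP 1 held the highest of the 6 values for 17 of 38 members and the lowest for 0, where 9.85% of all genes had their highest and 15.9% their lowest value on that array. R899X normal RVSP 2 held the highest value for 11 members and the lowest for 0. R899X normal RVSP 1 held the lowest value for 20 of 38 members, against 14.9% of all genes, and control 1 for 13, against 21.4%. In R899X high RVSP 2 and control 2, 19 members each lay above their own mean.

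The gap between mice of a group could be set against that of other genes. Between the R899X normal RVSP mice the median absolute log2 gap was 0.44 for the members and 0.22 for all genes, and 12 of 38 members differed by more than 2-fold, against 2.84% of all genes. That count was 2 between the R899X high RVSP mice (1.38% of all genes) and 1 between the controls (3.31%). Fosl1, too dim for the filter that all genes passed, was 1 of the 12 and 1 of the 2. Between the R899X high RVSP mice the median gap was 0.24 for the members and 0.16 for all genes. Between the controls it was 0.35 for the members and 0.24 for all genes. Mouse 2 stood above mouse 1 for 8 of 38 members in the R899X high RVSP group, 33 in the R899X normal RVSP group and 32 in the controls. Of all genes, mouse 2 stood higher for 51.3% in R899X high RVSP, 41.9% in R899X normal RVSP and 48.2% in control.

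A measure of RNA quality moved with these values. The 3′/5′ intensity ratio of the beta-actin control probe sets, which is high when RNA is partly degraded or incompletely copied, was 1.36 and 1.27 in the R899X high RVSP mice. In R899X normal RVSP it was 1.64 and 1.31, and among controls 1.89 and 1.45. The arrays with the highest ratios, control 1 and R899X normal RVSP 1, were those on which the members were lowest. The Gapdh ratio did not follow this order, at 0.721 and 0.740 in R899X high RVSP, 0.700 and 0.875 in R899X normal RVSP and 0.973 and 1.03 in controls. With the actin ratio as a covariate the median log2 difference of the members between R899X high RVSP and control was -0.019, against 0.30 without it. Their part in the result was not tested beyond that fit.

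The labelled tissue was borne out by its markers. The 7 measured markers of lung epithelium, among them Sftpc and Scgb1a1, were all bright on every array, the dimmest reading being 11550. Bmpr2 gave no check of the transgene, since whether its probe sets read the transgene is not known. Its brightest probe set lay between 15398 and 19768, with its 2 highest values in control 1 and R899X normal RVSP 1. The dimmest ran from 302 in control 1 to 460 in R899X normal RVSP 1. Another read 1928 and 2170.1 in R899X high RVSP mice, 657 and 1987 in R899X normal RVSP mice, and 436 and 2047 in controls, lowest on the same 2 arrays as the members.

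Of the AP-1 members, Fos, the partner that gives the dimer its transcriptional strength, read 10272 and 8075 in R899X high RVSP mice, 4732 and 10319 in R899X normal RVSP mice, and 5218 and 6615 in controls. The high RVSP values lay above both controls, with a log2 difference of 0.63 ± 0.33 (standard error of the limma fit, n = 2 mice per group, as for all such values here), while the normal RVSP values enclosed the controls. Jun, the other core partner, read 8436 and 8197 in high RVSP mice, 4732 and 8429 in normal RVSP mice, and 5374 and 6174 in controls. Its difference between high RVSP and control was 0.53 ± 0.25. The dimmer Jun probe set read 4645 and 4060 in high RVSP mice and 3206 and 4714 in controls. By it the groups overlapped, with a difference of 0.16 ± 0.20. Atf3, a stress-induced factor that can repress or activate as a dimer with Jun, read 622 and 575 in high RVSP mice, 306 and 637 in normal RVSP mice, and 323 and 349 in controls. By the brightest probe sets of these 3 genes, normal RVSP mouse 2 lay at or above the dimmer high RVSP mouse. Normal RVSP mouse 1 lay below every other array.

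Junb, a Jun relative that restrains growth, read 1271 and 769.7 in high RVSP mice, 401 and 1017 in normal RVSP mice, and 416 and 898.8 in controls. Each of the 3 groups held a low and a high mouse, and the groups overlapped. Fosl2, the Fos relative Fra-2, read 1791 and 1517 in high RVSP mice, 1178 and 1577 in normal RVSP mice, and 1629 and 1744 in controls, so both normal RVSP values were below both controls. Maff, a small Maf protein that lacks an activation domain, read 352.3 and 402.7 in high RVSP mice, 306 and 324 in normal RVSP mice, and 351.8 and 470.1 in controls. Jund, which is expressed more constantly than its relatives, spanned 5600.4 to 9864. Fosb, from 43.9 to 80.3, and Fosl1, from 5.67 to 73.1, were the 2 members that did not pass the filter on dim probe sets.

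**Figure D2:**
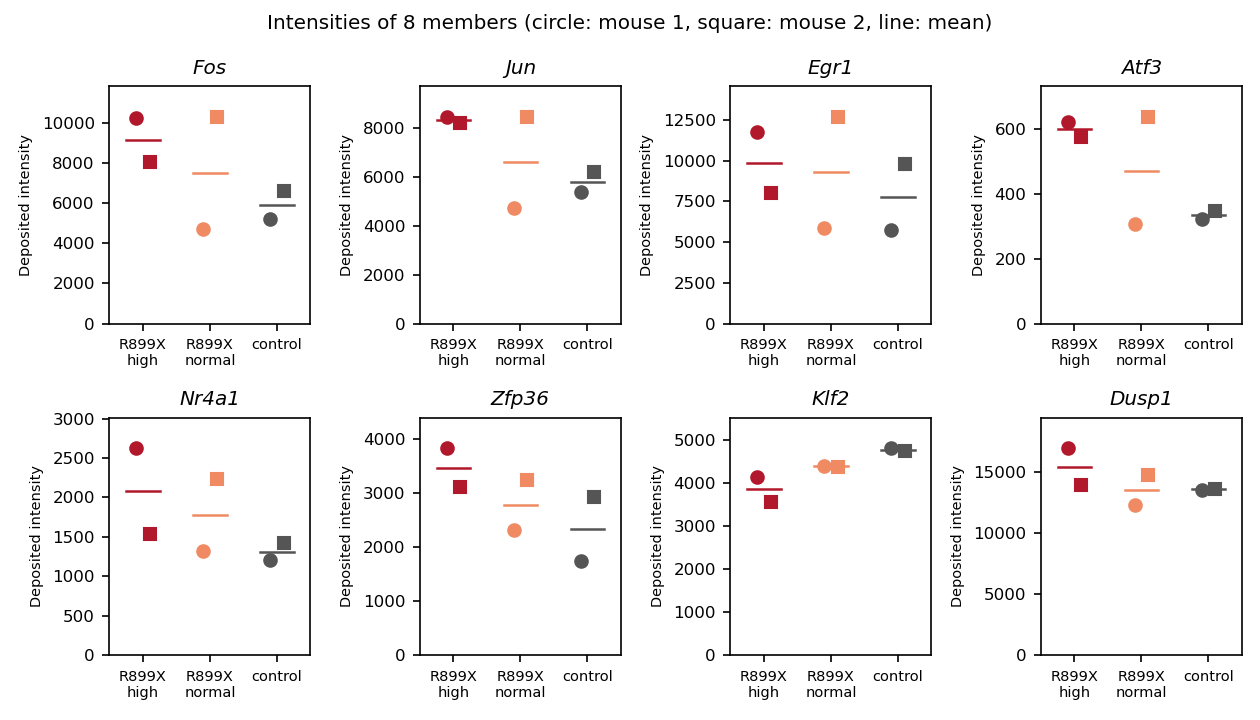
Deposited intensities (linear axis from 0) of Fos, Jun, Egr1, Atf3, Nr4a1, Zfp36, Klf2 and Dusp1 in R899X high RVSP, R899X normal RVSP and control mice. Each point is 1 mouse (circle for replicate 1, square for replicate 2) and each line the mean of the pair. For Fos, Jun and Atf3, read by their brightest probe sets, both high RVSP points lie above both controls. Their normal RVSP points lie far apart, and Klf2 runs the other way with little spread. The dimmer Jun probe set, not drawn, overlapped between high RVSP and control.

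The Egr genes encode zinc-finger factors that bind the GC-rich Egr site. Egr1, the most studied of them and a target of SRF and Elk, read 11743 and 8008 in high RVSP mice, 5882 and 12670.4 in normal RVSP mice, and 5722 and 9786 in controls. These groups overlapped, with a difference between high RVSP and control of 0.37 ± 0.39. Egr2 was the Egr gene whose high RVSP values, 403.4 and 479.8, both exceeded the normal RVSP values of 231 and 371 and the control values of 403.0 and 259. Egr2 in high RVSP 1 and control 1 differed by less than 1 unit of intensity. By this probe set that separation from the controls rests on a margin far inside the spread of the mice. The dimmer Egr2 probe set read 436 and 403 in high RVSP, 230 and 408 in normal RVSP and 264 and 245 in control mice. It separated high RVSP from control, at 0.69 ± 0.28, but not from normal RVSP. Egr3 spanned 122 to 304.

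The Nr4a genes encode orphan nuclear receptors that act without a known ligand. Nr4a1, also called Nur77, read 2621 and 1533 in high RVSP mice, 1316 and 2230.2 in normal RVSP mice, and 1202 and 1419 in controls. Both high RVSP values exceeded both controls, and the gap between the high RVSP mice was larger than the difference from the controls, 0.61 ± 0.31. Nr4a2 spanned 174 to 493 and Nr4a3 122 to 384, each highest in high RVSP 1 and lowest in normal RVSP 1. The median deviation of the 3 Nr4a genes was 0.66 in high RVSP 1 and -0.10 in high RVSP 2, then -0.63 and 0.43 in normal RVSP, and -0.31 and -0.16 in control mice.

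The Klf genes encode Krüppel-like zinc-finger factors. Klf2 read 4153 and 3566 in high RVSP mice, 4402 and 4383 in normal RVSP mice, and 4810.1 and 4745 in controls. The 3 groups did not overlap, with the high RVSP mice lowest and the controls highest. The difference was -0.31 ± 0.15 between high RVSP and control and -0.19 ± 0.15 between high and normal RVSP. Klf10, induced by TGF-beta, read 1421 and 814 in high RVSP mice, 1031 and 1035 in normal RVSP mice, and 1087 and 1294 in controls. The high RVSP mice enclosed all other values. Klf4 spanned 5296 to 7999, highest in high RVSP 1 and lowest in control 1. Its dimmer probe set went the other way between these 2 arrays, at 1537 in high RVSP 1 and 1834.5 in control 1. Klf6 spanned 3294 to 4204. The probe sets of Klf6 differed, and a dimmer one read 1454 and 1565 in high RVSP mice, 1345 and 1680.0 in normal RVSP mice, and 629 and 1492 in controls.

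Among the other regulators, Btg2, an antiproliferative cofactor that is also a p53 target, read 6685 and 5371 in high RVSP mice, 1963 and 5526 in normal RVSP mice, and 3461 and 4838 in controls. Normal RVSP 1 lay below both controls and normal RVSP 2 above both. Myc, the growth-promoting factor, read 231 and 254 in high RVSP mice, 138 and 182 in normal RVSP mice, and 186 and 192 in controls. Its groups did not overlap, with the high RVSP mice on top and a difference of 0.57 ± 0.24 from normal RVSP. Nfil3, a repressor linked to the clock and to innate lymphoid cells, read 140.1 and 89.0 in high RVSP mice, 117 and 159.9 in normal RVSP mice, and 128 and 124 in controls, with the high RVSP mice on both sides of the controls. Ier2 spanned 1972 to 3707, Ier5 1584 to 1870, Csrnp1 941 to 1235 and the clock gene Per1 605 to 1005.

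The feedback genes limit the response. Dusp1, a nuclear phosphatase that inactivates p38, JNK and ERK, read 16968 and 13962 in high RVSP mice, 12332 and 14790.2 in normal RVSP mice, and 13587 and 13627 in controls. Its range was narrow, with the highest array 1.38-fold above the lowest. Zfp36, or tristetraprolin, which binds AU-rich messages and speeds their decay, read 3828 and 3119 in high RVSP mice, 2324 and 3246 in normal RVSP mice, and 1750.5 and 2926 in controls. Both high RVSP values were above both controls, with a difference of 0.61 ± 0.27. Dusp5, a nuclear ERK phosphatase, had the widest range of the members that passed the filter, 3.78-fold, at 532 and 297 in high RVSP mice, 141 and 531 in normal RVSP mice, and 257 and 306 in controls. Dusp2 spanned 256 to 385.

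Gadd45b and Gadd45g, stress sensors that activate p38 and JNK, and Ier3, which acts in survival, had the mutant mice above the controls in each mean. Gadd45b read 1847 and 1938 in high RVSP mice, 1739 and 2181 in normal RVSP mice, and 1205.0 and 1659.8 in controls. All 4 R899X mice were above both controls, with differences of 0.42 ± 0.20 for high RVSP and 0.46 ± 0.20 for normal RVSP. Its dimmest probe set ran the other way, at 102 and 95.9 in high RVSP mice, 91.3 and 83.2 in normal RVSP mice, and 130.01 and 117 in controls, and in the remaining one the groups overlapped. Ier3 read 6835 and 6547 in high RVSP mice, 6623 and 8442 in normal RVSP mice, and 5006 and 6921 in controls, overlapping the controls in both mutant groups. Gadd45g spanned 668 to 925.

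Of the kinases and effectors, Ptgs2, the inducible cyclooxygenase that begins prostaglandin synthesis, read 1393 and 1042 in high RVSP mice, 514 and 1756 in normal RVSP mice, and 718 and 961 in controls. The normal RVSP pair differed 3.41-fold and enclosed every other array. Sik1, a kinase that holds back CREB coactivators, read 499 and 415 in high RVSP mice, 181 and 623 in normal RVSP mice, and 345 and 505 in controls, a 3.43-fold gap within normal RVSP. Ptgs2, Sik1 and Dusp5 were singled out after their values were seen. Plk2, a polo-like kinase, spanned 1184 to 1570.0 with all 4 R899X mice above both controls. Plk3 spanned 130 to 226. Rhob, an early-response GTPase of endosomes, had the narrowest range after Ier5 by the brightest probe sets, spanning 7194 to 8569.9.

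The first comparison, R899X high RVSP against control, joins the transgene and the raised pressure. Of the 38 members, 31 had a positive log2 difference and 7 a negative one, with a median of 0.30, while the median of all genes was -0.019 and 46.1% of them were positive. Of the 36 members that passed the filter, the most positive were Atf3 at 0.81 ± 0.31, Junb at 0.68 ± 0.49 and Fos, and the most negative were Klf2, Nfil3 at -0.15 ± 0.30 and Klf10 at -0.14 ± 0.26. All Egr, Nr4a, feedback, stress and effector genes were positive, as were 7 of 9 AP-1 genes, but 3 of 4 Klf genes were negative. Of these 36, 16 had both high RVSP arrays above both controls, where 14.3% of all genes did, and 1, Klf2, had both below, where 18.3% did. The list was chosen with results of this comparison known, so nothing is read from these counts.

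With limma, 0 of the 54 member probe sets that passed the filter reached an adjusted p under 0.05 in this comparison, and 0% of the 27022 probe sets did. The smallest adjusted p of a member was 0.857. At an unadjusted p under 0.05 there were 2 member probe sets, with 5.65% of all probe sets. These were that of Atf3 and the dimmer one of Egr2. The ordinary linear model also gave 2. The share of all probe sets under that model is not given, here or in the other comparisons, so nothing is read from its counts. The difference exceeded the gap between the mice of both groups for 9 of the 36 members (25%) and for 20.2% of all genes. Leaving out control 1 gave a median of 0.19 with 25 positive members, and leaving out R899X high RVSP 1 gave 0.14 with 27.

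**Figure D3:**
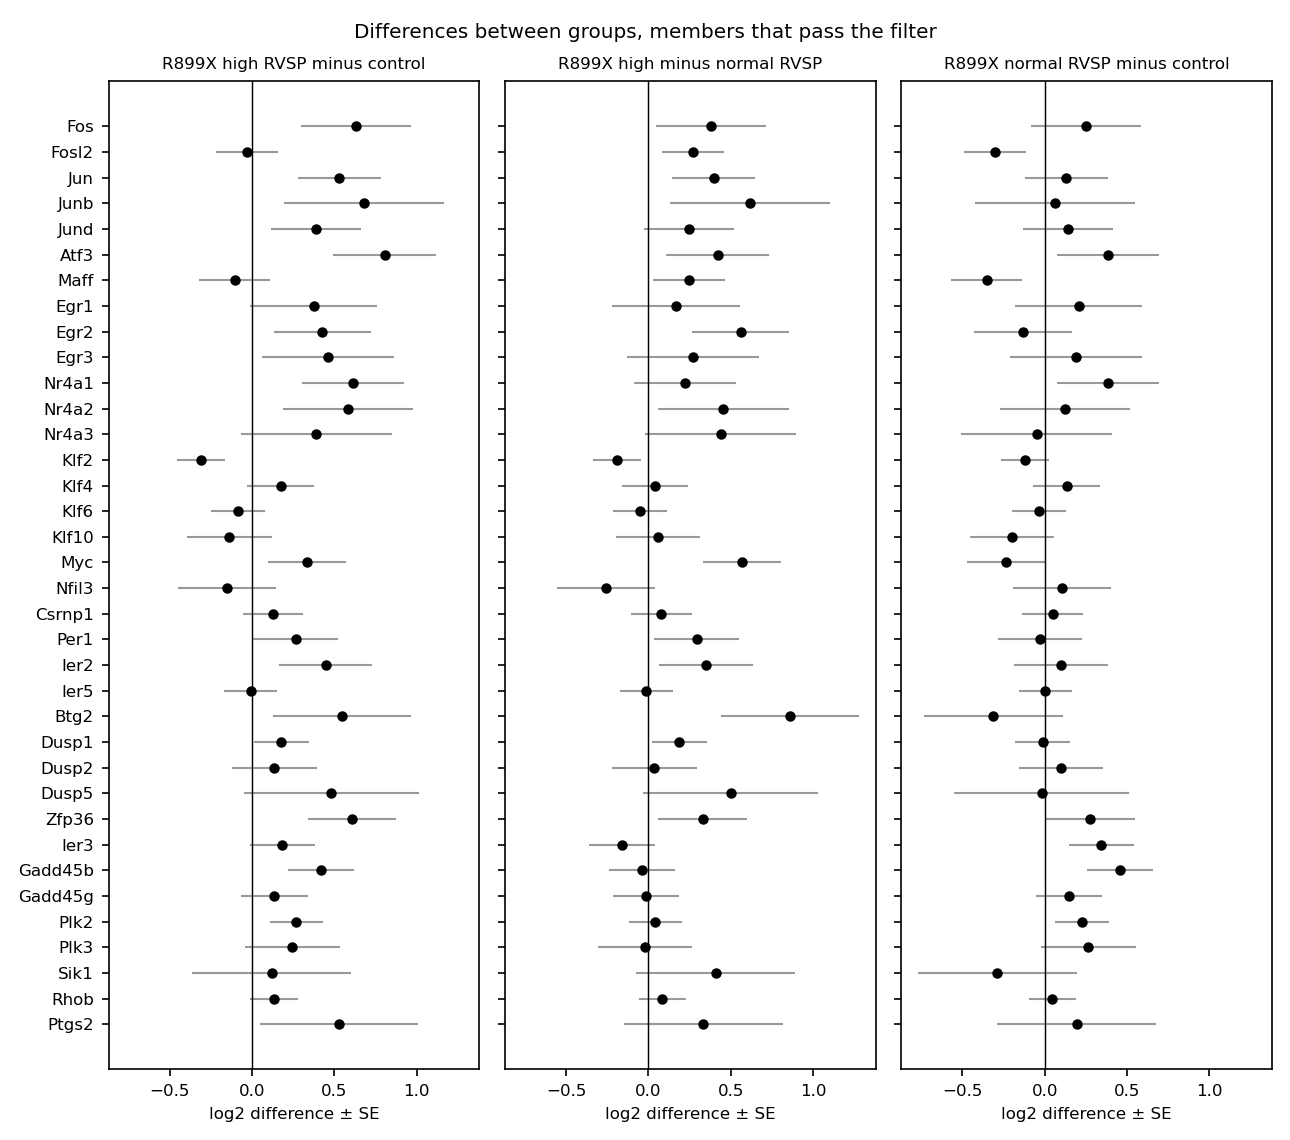
Log2 differences of group means (horizontal axis, on the log2(intensity + 16) scale) for the 36 members that passed the filter, with bars of 1 standard error from the limma fit of 6 arrays, for R899X high RVSP minus control, R899X high minus normal RVSP and R899X normal RVSP minus control. Most points of the first panel lie right of 0, up to 0.81 for Atf3, and Klf2 lies left of 0 in all 3 panels.

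The R899X mice of high and of normal RVSP have the transgenes in common and differ in pressure. Positive log2 differences were found for 30 of 38 members, against 42.5% of all genes, with a median of 0.26, against -0.034 for all genes. Among the 36 members that passed the filter, Btg2 was the most positive at 0.86 ± 0.42, followed by Junb at 0.61 ± 0.49 and Myc, and the most negative were Nfil3 at -0.26 ± 0.30, Klf2 and Ier3 at -0.16 ± 0.20. The dimmer Btg2 probe set gave 0.15 ± 0.20. All 9 AP-1 genes were positive, including Fosb and Fosl1, which did not pass the filter. The 3 stress and survival genes were negative. The groups did not overlap upwards for 5 of 36 members, Maff, Egr2, Myc, Per1 and Rhob (11.5% of all genes), and downwards for Klf2 (19.8% of all genes). By the dimmer probe set of Egr2 these groups overlapped. Only 3 members (8.33%) had a difference above the gaps between mice of both groups, against 19.1% of all genes.

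This comparison turned on a single mouse. Without R899X normal RVSP 1 the median of the members was -0.067 and 14 of 38 were positive, and without R899X normal RVSP 2 it was 0.58 with 34 positive. Without R899X high RVSP 1 it was 0.096 and without R899X high RVSP 2 it was 0.43. In the limma fit 0 member probe sets passed (0% of all probe sets), with a smallest adjusted p of 0.9996. At an unadjusted p under 0.05 there were 2, of Myc and of Ier5 (2.62% of all probe sets), and 2 by the ordinary linear model. The Ier5 probe set was its dimmest, with a difference of 1.13 ± 0.30, where the brightest gave -0.013 ± 0.16.

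For R899X normal RVSP against control the transgene is present and pressure near normal. This comparison uses the same 2 controls as that of high RVSP. Positive differences were found for 23 of 38 members, against 53.7% of all genes, with a median of 0.081, against 0.017 for all genes. Among the 36 members that passed the filter, Gadd45b was the most positive, followed by Nr4a1 at 0.39 ± 0.31 and Atf3 at 0.38 ± 0.31, and the most negative were Maff at -0.35 ± 0.22, Btg2 at -0.31 ± 0.42 and Fosl2 at -0.30 ± 0.19. The dimmer Btg2 probe set gave 0.20 ± 0.20, of the opposite sign. The dim Fosl1, which was not tested, had a log2 difference of 1.14 between high and normal RVSP and of -0.99 between normal RVSP and control. The arrays of the groups did not overlap for Gadd45b and Plk2, which were higher (15% of all genes), or for Fosl2, Maff, Klf2, Klf10 and Myc, which were lower (12% of all genes). The difference exceeded both gaps within groups for 3 of 36 members (8.33%, against 16.3% of all genes).

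The sign of the median for normal RVSP against control depended on which mouse was kept. It was 0.38 without R899X normal RVSP 1, -0.20 without R899X normal RVSP 2 and -0.091 without control 1. By limma 0 member probe sets passed (0% of all probe sets), with a smallest adjusted p of 0.987. There were 0 at an unadjusted p under 0.05 (4.34% of all probe sets) and 1 by the ordinary linear model.

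With all 4 R899X mice set against the controls, 29 of 38 members had a positive difference, with a median of 0.15, against -0.00043 for all genes, of which 49.9% were positive. The arrays did not overlap for Gadd45b and Plk2, which were higher (6.25% of all genes), or for Klf2, which was lower (6.23% of all genes). By limma 0 member probe sets passed (0% of all probe sets, smallest adjusted p of a member 0.832), and 1, of Gadd45b at 0.44 ± 0.17, had an unadjusted p under 0.05 (5.92% of all probe sets). The ordinary linear model also gave 1. With control 1 and R899X normal RVSP 1 both left out, 1 member probe set, the dimmer one of Ptgs2, passed for all R899X mice against control (0.844% of all probe sets) and for R899X normal RVSP against control (0.485%), in a fit with 1 control and 1 normal RVSP array.

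Other probe sets of the same gene did not always bear out the brightest one. Of the members, 11 had more than 1 probe set past the filter, with 18 probe sets beside the brightest. For high RVSP against control 9 of these 18 had the sign of the brightest, for high against normal RVSP 8, and for normal RVSP against control 6. The gap between the R899X normal RVSP mice was better shared, with 16 of 18 of the same sign, but not always in size. The dimmer probe set of Jun read 4389 and 4402 in the normal RVSP mice and that of Btg2 2347 and 2577, where the brightest gave gaps of 1.78-fold and 2.81-fold. For Ptgs2 the dimmer probe set read 438 and 318 in high RVSP mice, 171 and 515 in normal RVSP mice, and 208 and 192 in controls, a gap within normal RVSP like that of the brighter one. Nr4a2 had 4 probe sets past the filter, all higher in normal RVSP 2 than in normal RVSP 1, by 1.59-fold to 3.19-fold.

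Genes around the pathway were described from 6 further lists. Of 29 measured genes known to be induced by similar stimuli, 0 passed in any comparison and 21 had a positive difference between high RVSP and control, with a median of 0.14. Thbs1, the matrix protein thrombospondin, read 1137 and 997 in high RVSP mice, 478 and 802 in normal RVSP mice, and 385 and 790.5 in controls. Cebpb, an inflammatory transcription factor, read 5635 and 5129 in high RVSP mice, 2852 and 4777 in normal RVSP mice, and 2359 and 5241 in controls. Over the arrays this list had medians of 0.14 and 0.034 in high RVSP, -0.11 and 0.11 in normal RVSP, and -0.11 and -0.082 in controls, so its high and low arrays were those of the members with a smaller span.

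The factors and kinases upstream of these genes had array medians from -0.081 to 0.11. The 14 measured, among them Srf and Creb1, had a median difference of -0.012 between high RVSP and control, with 7 positive and 0 passed in either direction. Mapk8, the kinase JNK1, had a difference of -0.46 ± 0.26 and Mrtfb, an SRF coactivator, of -0.31 ± 0.17. The 8 ERK feedback genes had a median of 0.036 with 5 positive and 0 passed. Dusp6, a cytoplasmic ERK phosphatase, differed by 0.24 ± 0.23 and Spred1, an inhibitor of Ras signalling, by 0.18 ± 0.17.

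**Figure D4:**
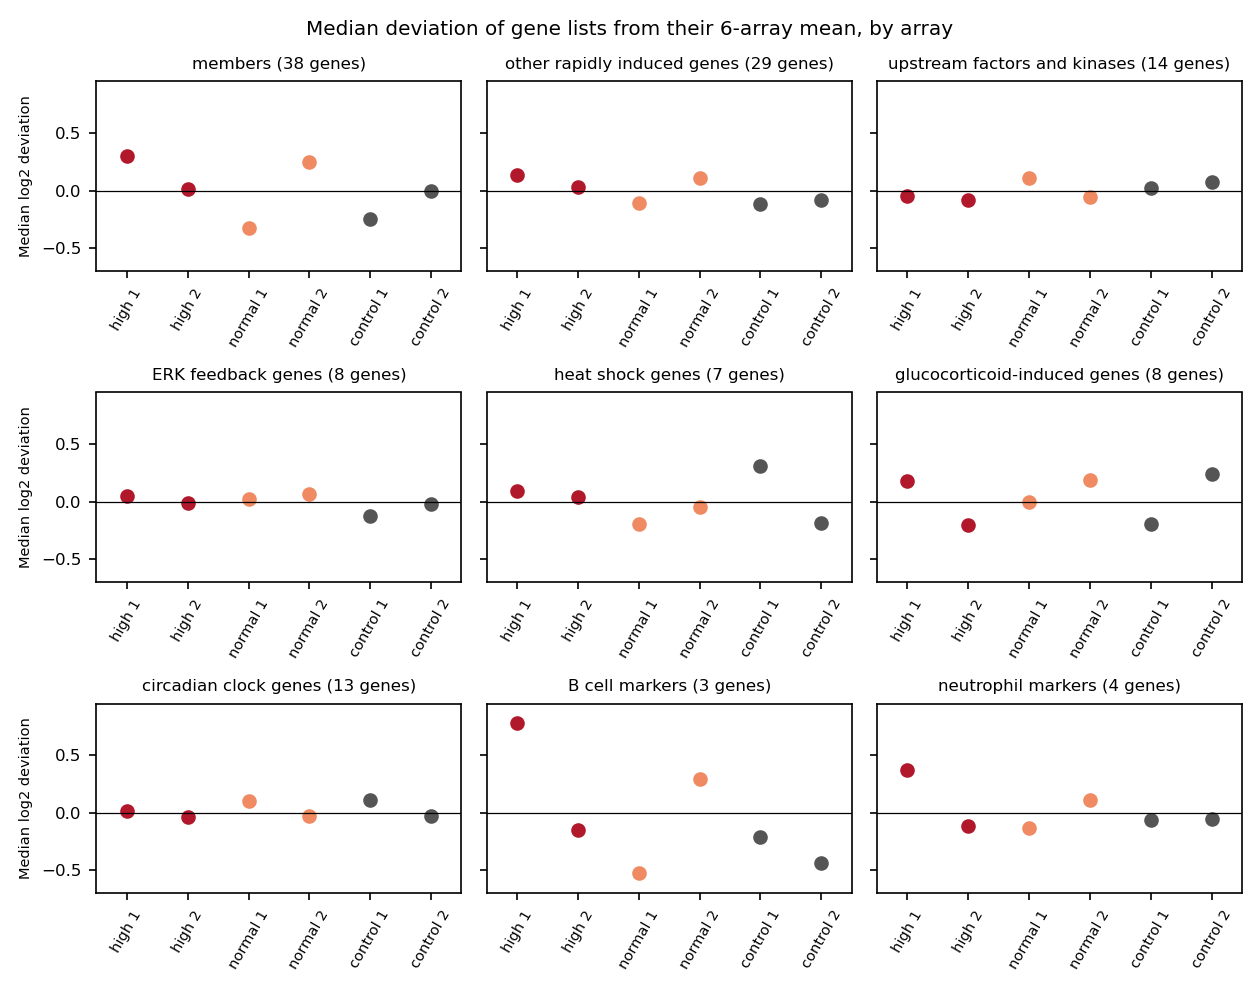
Median log2 deviation from the 6-array mean (vertical axis) of the 38 members, of 6 lists of related genes and of B cell and neutrophil markers, on each array (high, normal: RVSP of R899X mice). Each point is 1 array. Other marker lists were computed but are not drawn. The members run from -0.32 in R899X normal RVSP 1 to 0.31 in R899X high RVSP 1, while the upstream factors and kinases stay between -0.081 and 0.11.

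Heat shock, glucocorticoid and clock genes followed other orders. The 7 heat shock genes had their highest median, 0.31, in control 1, where the members were low. Their lowest, -0.20, was in R899X normal RVSP 1, as for the members. They had a median difference of -0.11 between high RVSP and control. Between high and normal RVSP all 7 were positive, with a median of 0.18, where 42.5% of all genes were positive. Hspb1, a small heat shock protein, differed by -0.45 ± 0.20 and Hspa1a, an inducible Hsp70, by 0.43 ± 0.31. The 8 glucocorticoid-induced genes had medians of 0.18 and -0.20 in high RVSP, 0.00073 and 0.19 in normal RVSP, and -0.20 and 0.24 in controls. Among them Zbtb16 read 4282 and 852 in high RVSP mice, 3793 and 3538 in normal RVSP mice, and 2669.8 and 6356 in controls, and the metallothionein Mt2 differed by 0.61 ± 0.44. The array medians of the 13 clock genes stayed between -0.036 and 0.11. Single clock genes varied more, as Dbp, which read 5883 in control 1 and 2337 in control 2. Between high RVSP and control, Nr1d1, the repressor Rev-erb alpha, differed by 0.48 ± 0.23 and Cry1, which represses the clock, by -0.46 ± 0.18. In each of these lists 0 genes passed in any comparison.

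Markers of other cells also differed between the mice. The summed intensity of 3 measured B cell markers of 4 listed was 4562 and 2455 in high RVSP mice, 1885 and 3052 in normal RVSP mice, and 2850.1 and 2037 in controls. It was highest in R899X high RVSP 1 and lowest in R899X normal RVSP 1, as the members were. In control 1, where the members were also low, it lay above R899X high RVSP 2 and control 2. The sum of 4 neutrophil markers of 5 listed was 56858 and 40127 in high RVSP mice, 41212 and 48179 in normal RVSP mice, and 42691 and 38958 in controls. No B cell or neutrophil marker was at 0, the lowest B cell reading being 429 and the lowest neutrophil reading 283. Platelet markers, 5 of 5 measured, summed to 4419 and 6631 in high RVSP mice, 4337 and 4272 in normal RVSP mice, and 2969 and 4146 in controls. All 5 had a positive difference between high RVSP and control, with a median of 0.53, and between high and normal RVSP, with a median of 0.35. Cardiac muscle markers, 6 of 6 measured, summed to 19263 and 9494 in high RVSP mice, 27941 and 20259 in normal RVSP mice, and 23370.2 and 20581 in controls. Their median difference was -0.80 between high RVSP and control and -0.87 between high and normal RVSP, and they were lowest in R899X high RVSP 2. By limma 0 platelet or cardiac markers passed the adjusted threshold (0% of all probe sets). At an unadjusted p under 0.05 there were 3 of each between high RVSP and control (5.65% of all probe sets). Between high and normal RVSP there were 0 platelet and 5 cardiac markers (2.62% of all probe sets). Macrophage markers, 5 of 6 measured, summed to 7368 and 14597 in high RVSP mice and 10548 and 10990 in normal RVSP mice. In controls they summed to 15955 and 11478, so the sum was lowest in R899X high RVSP 1 and highest in control 1. Red cell markers, 3 of 4 measured, ran from 651 in R899X high RVSP 1 to 4177 in R899X high RVSP 2. Smooth muscle markers, 5 of 5 measured, ran from 12941 in control 1 to 18512 in R899X normal RVSP 1. The part of these cells in the values of the members was not tested. Endothelial markers, whose cells express Klf2, summed to 36849 and 32952 in high RVSP mice, 37883 and 34530.4 in normal RVSP mice, and 34009.9 and 37329 in controls.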

How the data were processed

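RNA of the flushed right lung of 6 mice, purified on silica columns and biotin-labelled per the labels' protocols, was hybridised to 1 array per mouse. The authors deposited 1 intensity per probe set and array on a linear scale, by an algorithm not given in the sources used here. The mean intensity after trimming 2% of the deposited values at each end was 500.0 on every array. Median intensities ran from 128 to 141. No depth applies to arrays, and the number of mice limits the precision.

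Values were turned into log2(intensity + 16), which understates differences of dim probe sets. The 64 control probe sets and the lower 40% by mean log2 value (below an intensity of about 74.9) were left out, leaving 27022, with 36 of 38 members by their brightest probe set. Symbols came from the platform annotation, and all 38 members matched RefSeq genes of GRCm38.p6 by identifier. With R 4.3.3 and limma 3.58.1, group means were fitted to all 6 arrays (3 residual and 5.06 prior degrees of freedom, intensity trend), two-sided, with Benjamini-Hochberg adjustment over all probe sets. Deviations, medians and counts were computed from the same values, with 1 probe set per gene. Those given for 38 members include Fosb and Fosl1, which failed the filter, while those for all genes cover only genes that passed it. The procedure was tested on simulated data.

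The members and the gene lists were chosen with earlier results of these data known. Intensities are given on every array for 8 well-known members, for the 3 most positive and 3 most negative members past the filter in each comparison of 2 groups, and for Ptgs2, Sik1 and Dusp5, and of each further list the 2 genes past the filter of largest absolute difference between R899X high RVSP and control are named. Replicates are numbered by accession order only, and intensities of a group are given in that order. Each array is an individual mouse per the labels, which name no batch.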

Additional observations from a re-analysis of the deposited data

How the results depend on the processing

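No paired analysis was possible because the replicate numbers follow accession order and pair no mice across groups. The number of member probe sets past the adjusted threshold stayed at 0 under other pseudocounts, normalizations, filters, probe set rules and variance models and without any 1 array. Without control 1 and R899X normal RVSP 1 together it was 1 in the comparisons of R899X normal RVSP and of all R899X mice with control, in both cases the dimmer probe set of Ptgs2 (limma adjusted p = 0.0462 and 0.0320), where 0.485% and 0.844% of all probe sets passed. That fit left 1 control and 1 normal RVSP array, each assumed to vary like the high RVSP pair. The median log2 difference of the members depended more on single mice. Leaving out 1 array gave 0.14 to 0.39 for R899X high RVSP against control, -0.067 to 0.58 for R899X high against normal RVSP, -0.20 to 0.38 for R899X normal RVSP against control, and 0.029 to 0.31 with all R899X mice against control. For R899X high RVSP against control the median was -0.0063 with the second brightest probe set of the 17 members that have one and -0.019 in the fit that holds the actin ratio as covariate; the cause was not tested. In these 2 settings it was 0.15 and 0.099 for R899X high against normal RVSP. It was -0.14 and -0.098 for normal RVSP against control, and -0.065 and -0.076 with all R899X mice against control. All 3 comparisons with control thus turned direction in both settings. Only 11 of the 17 members had their second brightest probe set past the filter on dim probe sets, while the main median covers all 38 members. For R899X high against normal RVSP it was -0.067 without control 1 and R899X normal RVSP 1. Counts of members with a positive difference, an alternative chosen after seeing the data, came to 19 of 38 for high RVSP, 10 for normal RVSP and 16 for all R899X mice, each against control, when the actin ratio was a covariate. For R899X normal RVSP against control they were 14 without control 1 and 10 without R899X normal RVSP 2. For R899X high against normal RVSP they were 14 without R899X normal RVSP 1.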
